A study of Mus musculus with 6 samples.

Results

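Osteoprotegerin, encoded by Tnfrsf11b and also called Opg, was followed together with the ligands it binds and the receptors of those ligands in endothelial cells (ECs) sorted from mouse lungs that held growing breast cancer metastases. The 5 genes were Tnfrsf11b, Tnfsf11 (RANKL), Tnfrsf11a (RANK), Tnfsf10 (TRAIL) and Tnfrsf10b (the death receptor DR5). They were taken by symbol, using each probe set that the platform annotation gave to 1 of these symbols alone. This gave 11 probe sets of the 45037 tested, and 5 genes of the 18193 with a probe set of their own.

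All 6 arrays came from NSG mice, an immunodeficient strain without mature T, B and NK cells, aged 6 to 8 weeks and injected through the tail vein with MDA-MB-231-LM2, human breast cancer cells derived by selection for lung colonization. On days 14, 16 and 18 the mice received liposomes intravenously. The liposomes held PBS in the control group (3 arrays) and clodronate, which kills the phagocytes that take it up, in the macrophage depletion group (3 arrays). Lungs were taken on day 20, and the labels give the time as 3 weeks. CD31+ cells were sorted after removal of cells carrying CD45, CD11b, EpCAM, CD140a, CD140b or the GFP of the cancer cells. Both groups therefore carried metastases and liposomes, and mice without either were not analysed here. The labels call the 3 arrays of a group biological replicates without stating how many mice each one held. The comparison asks how the endothelial transcripts differed once macrophages were depleted.

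Osteoprotegerin is a secreted receptor without a membrane anchor that captures RANKL and TRAIL before they reach their signaling receptors. RANKL acts through RANK to drive osteoclast formation and NF-kB signaling, and TRAIL acts through death receptors that recruit FADD and caspase-8. ECs are a known source of osteoprotegerin, which they store with von Willebrand factor, and TRAIL is a known interferon-responsive gene.

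Of the 5 genes, Tnfrsf11b stood lowest relative to control, at a signal 2.36-fold lower after clodronate liposomes, while the differences of its ligands and their receptors lay between -0.23 and 0.24 on the log2 scale over all their probe sets. No probe set of the 5 genes passed an adjusted p of 0.05 in limma (0 of 11), against 0.306% of all 45037 probe sets, 0.238% lower and 0.0688% higher. Read by the brightest probe set, 0 of 5 genes passed, against 0.434% of 18193. At an unadjusted p under 0.05 there were 2 of 11, both of Tnfrsf11b and both lower, against 10.8% of all probe sets in either direction and 5.27% lower. In 3 of 11 probe sets the arrays of the groups did not overlap, all with lower clodronate values, against 8.04% of all probe sets in that direction. These were both probe sets of Tnfrsf11b and 1 dim probe set of Tnfrsf11a.

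**Figure D1:**
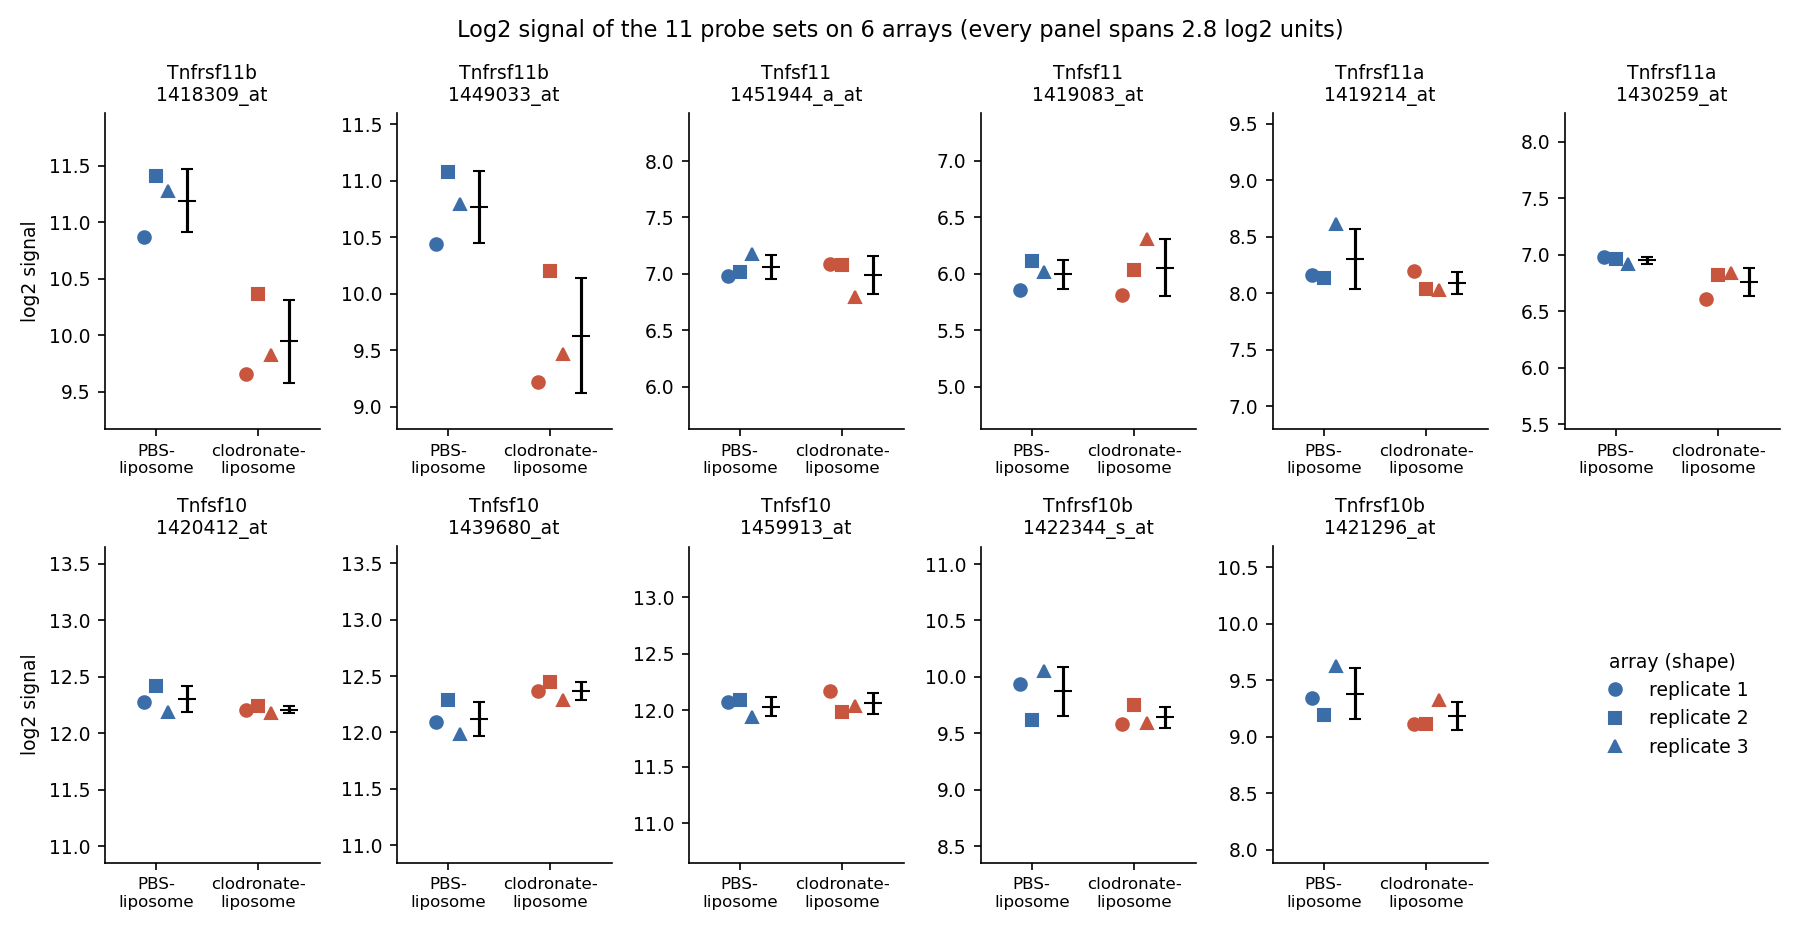
Log2 signal (vertical axis) of each of the 11 probe sets on the 3 PBS-liposome (blue) and 3 clodronate-liposome (red) arrays, with marker shape giving the replicate number and the black bar the mean ± SD. Every panel spans the same number of log2 units, so the step of Tnfrsf11b, with PBS-liposome values of 10.87 to 11.41 and clodronate-liposome values of 9.66 to 10.36 for 1418309_at, can be compared by eye with the nearly level panels of the other genes.

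Tnfrsf11b, the decoy receptor itself, had log2 signals of 10.87, 11.41 and 11.28 in PBS-liposome replicates 1 to 3 and of 9.66, 10.36 and 9.82 in clodronate-liposome replicates 1 to 3 on probe set 1418309_at. Every clodronate array lay below every PBS array, with a gap of 0.51 between the nearest arrays of the groups, and clodronate replicate 2 was the highest of its group. The group means were 11.19 ± 0.28 and 9.95 ± 0.37 (SD, n = 3 each), a log2 difference of -1.24 (SE 0.209, 95% interval -1.72 to -0.76). This is 2.36-fold lower, with an interval of 1.69- to 3.3-fold. The limma p was 0.000359 and its Benjamini-Hochberg adjusted p over all probe sets was 0.0716, just short of the threshold. Among the 18193 genes it ranked 124th by p and 40th by size among the decreases, and 0.412% of genes had a decrease of more than 1. In RNA from sorted bulk cells, fewer cells of a type and less RNA per cell cannot be told apart.

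The other probe set of Tnfrsf11b, 1449033_at, read 10.44, 11.08 and 10.79 in the PBS-liposome arrays and 9.22, 10.2 and 9.47 in the clodronate-liposome arrays. It placed the 6 arrays in the same order within each group as 1418309_at, with a gap of 0.25 between the groups and a Pearson r of 0.99 between the probe sets over the 6 arrays. Its log2 difference was -1.14 (SE 0.261, 95% interval -1.74 to -0.54), with a limma p of 0.00243 and an adjusted p of 0.156. Both probe sets read the same RNA samples, so their likeness adds no replicate. With 3 arrays against 3, an exact two-sided permutation test cannot go below 0.1, and it gave 0.1 for each.

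Whether Tnfrsf11b passed the threshold depended on the fit, while its direction did not under any alternative run. The adjusted p was 0.0432 when probe sets below the median signal were left out, 0.0336 with a trended and robust variance prior and 0.0291 with array weights. It was 0.06 with the replicate number as a block, and 0.0536 to 0.246 when 1 array was left out in turn. Clodronate replicates 1 and 3 also had lower hybridization controls (11.91 and 11.94, against 12.11 to 12.24 on the other arrays) and higher 18S signal (13.01 and 13, against 12.33 to 12.63). With the hybridization controls as a covariate the difference was -0.91 (adjusted p 0.196). With clodronate replicate 2, whose controls did not share this shift (12.2 and 12.33), as the only treated array it was -0.82 (adjusted p 0.482).

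**Figure D2:**
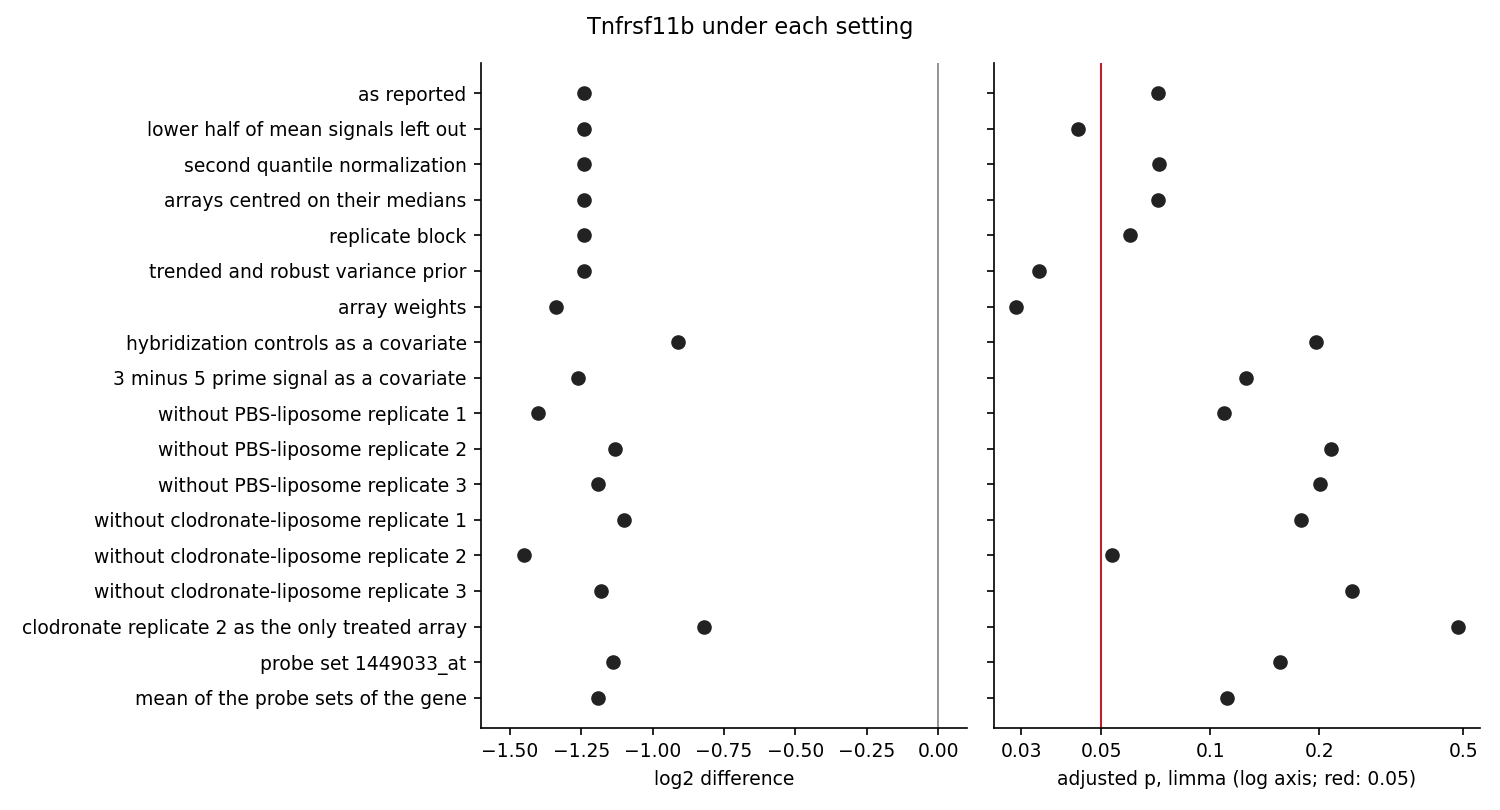
The log2 difference of Tnfrsf11b (left, clodronate-liposome minus PBS-liposome) and its limma adjusted p (right, log axis, red line at 0.05) under each setting named on the vertical axis. The difference stays between -1.45 and -0.82, and the adjusted p lies left of the line under 3 settings.

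RANKL, the ligand that osteoprotegerin is named for blocking in bone, had log2 signals of 6.98, 7.02 and 7.18 in the PBS-liposome arrays and 7.09, 7.08 and 6.8 in the clodronate-liposome arrays on its brighter Tnfsf11 probe set, 1451944_a_at. The groups overlapped, and the difference of -0.07 (SE 0.118, 95% interval -0.34 to 0.2, adjusted p 0.894) was below the spread between arrays. The other probe set, 1419083_at, differed by 0.06 (95% interval -0.28 to 0.39, adjusted p 0.939), and the pair ran in opposite directions across the arrays (r = -0.61). As a rough guide to background, 10 probe sets of Y-linked genes, which the female mice of the study lack, had mean signals of 5.63 to 6.82 with a median of 6.16, although probe sets differ in their background. Tnfsf11 1419083_at, with means of 6.00 and 6.05, lay within that range, and 1451944_a_at, with means of 7.06 and 6.99, just above it. These probe sets had little or no room to show a decrease, so nothing is read from their small differences.

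RANK, the signaling receptor of RANKL, read 8.16, 8.14 and 8.61 in the PBS-liposome arrays and 8.2, 8.04 and 8.03 in the clodronate-liposome arrays on 1419214_at of Tnfrsf11a. The groups overlapped through clodronate replicate 1, and PBS replicate 3 stood above the other arrays. The difference was -0.22 (SE 0.144, 95% interval -0.55 to 0.12, adjusted p 0.67). On the dimmer probe set 1430259_at the arrays read 6.98, 6.96 and 6.92 against 6.61, 6.82 and 6.84. There the groups did not overlap, by a gap of 0.07, with a difference of -0.19 (SE 0.101, 95% interval -0.43 to 0.04, adjusted p 0.557). With means of 6.95 and 6.76, 1430259_at lay at the upper edge of the Y-linked range, so nothing is read from that gap. The probe sets shared little of their variation between arrays (r = 0.16).

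TRAIL, the death ligand that osteoprotegerin also captures, had the narrowest range of the 5 genes over the 6 arrays (0.24 on its brightest probe set). Its brightest Tnfsf10 probe set, 1420412_at, read 12.28, 12.42 and 12.19 in the PBS-liposome arrays and 12.21, 12.24 and 12.18 in the clodronate-liposome arrays. The values of the groups overlapped, and the difference was -0.09 (SE 0.0983, 95% interval -0.32 to 0.14, adjusted p 0.825). On 1439680_at the arrays read 12.09, 12.29 and 11.99 against 12.37, 12.45 and 12.29, a difference of 0.24 (95% interval -0.01 to 0.5, adjusted p 0.488) in which only PBS replicate 2 and clodronate replicate 3 met. On 1459913_at the difference was 0.03 (95% interval -0.2 to 0.26, adjusted p 0.956). The probe sets therefore differed in sign, none passed the test, and their pairwise correlations over the arrays were 0.08 to 0.36.

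DR5, the mouse death receptor for TRAIL, read 9.94, 9.62 and 10.05 in the PBS-liposome arrays and 9.58, 9.75 and 9.59 in the clodronate-liposome arrays on 1422344_s_at of Tnfrsf10b, a probe set type that can hybridize to more than 1 transcript family. PBS replicate 2 lay among the clodronate values, so the groups overlapped. The difference was -0.23 (SE 0.13, 95% interval -0.53 to 0.07, adjusted p 0.597). The other probe set, 1421296_at, gave -0.2 (SE 0.135, 95% interval -0.51 to 0.11, adjusted p 0.674) and followed it across the arrays (r = 0.76).

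Mice carry further TRAIL receptors without a death domain, encoded by Tnfrsf22 and Tnfrsf23, which were both measured. The related Tnfrsf26, listed with them, was not measured. Tnfrsf22 differed by -0.11 (95% interval -0.31 to 0.09, adjusted p 0.734) and Tnfrsf23 by -0.29 (95% interval -0.75 to 0.17, adjusted p 0.683). In limma 0 of 2 passed, also at an unadjusted p under 0.05. The Tnfrsf22 arrays did not overlap (9.62 to 9.65 against 9.5 to 9.55), a spread so narrow that the fit widened it by borrowing from other probe sets. A dimmer Tnfrsf22 probe set, 1422038_a_at, gave -0.43 (unadjusted p 0.0342, adjusted p 0.407).

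Of 3 further molecules that bind osteoprotegerin or RANKL, Lgr4 passed the test. Lgr4, an R-spondin receptor that is also described as another receptor for RANKL, read 8.22, 8.42 and 8.01 in the PBS-liposome arrays and 9.32, 9.04 and 9.08 in the clodronate-liposome arrays. All clodronate arrays were higher, and Lgr4 rose 1.91-fold (log2 difference 0.93, SE 0.136, 95% interval 0.62 to 1.25, adjusted p 0.0465), against 0.0879% of genes that passed in this direction. It did not pass with any 1 array left out (adjusted p 0.0859 to 0.152), and the call rests on probe set 1433891_at, since the means of 1453765_at (6.29 and 6.25) lay within the Y-linked range and could not bear on it. Vwf, the von Willebrand factor with which osteoprotegerin is stored, differed by 0.05 (95% interval -0.24 to 0.34, adjusted p 0.932). Sdc1, a heparan sulfate proteoglycan of the kind that holds osteoprotegerin at cell surfaces, differed by 0.12 (95% interval -0.36 to 0.59, adjusted p 0.897) on its brightest probe set. Its other probe sets gave 0, -0.16 and, on the dimmest, 1437279_x_at, 0.4 without overlap (95% interval 0.13 to 0.67, unadjusted p 0.00902, adjusted p 0.249).

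**Figure D3:**
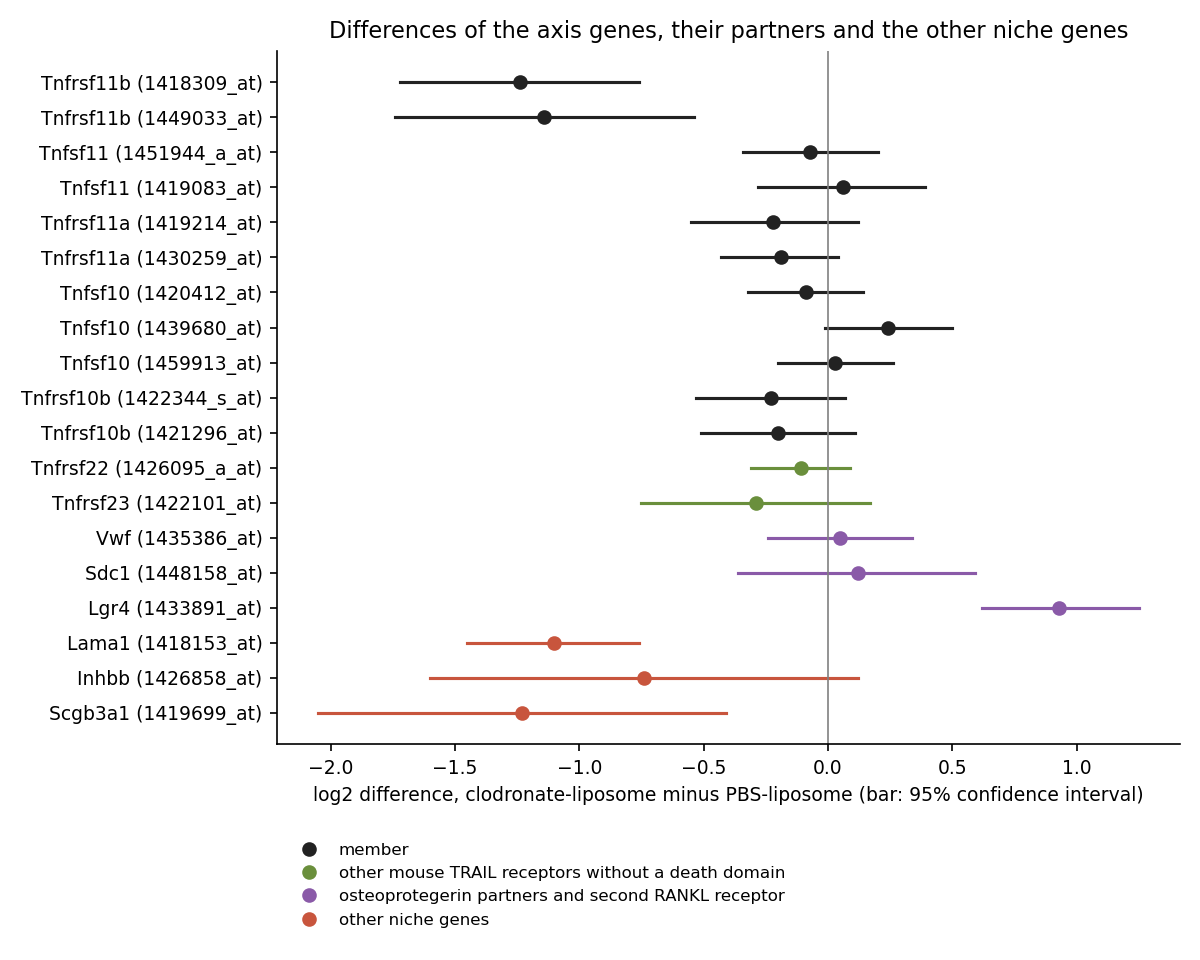
Log2 difference (horizontal axis, clodronate-liposome minus PBS-liposome) with its 95% interval for each probe set of the 5 genes (black) and for the brightest probe set of related genes: the TRAIL receptors without a death domain (green), osteoprotegerin partners and Lgr4 (purple) and the other niche genes of the study (red). The intervals of Tnfrsf11b, Lama1 and Scgb3a1 lie below 0, that of Lgr4 lies above 0, and all others cross it.

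Tnfrsf11b was studied as 1 of 4 endothelial niche genes with Inhbb (a subunit of activin B), Lama1 (a laminin chain) and Scgb3a1 (a secretoglobin), a set named by the study, which examined it on these arrays, so that its direction here is no independent evidence. Lama1 fell by 1.1 on the log2 scale (SE 0.15, adjusted p 0.0355), and 0.346% of genes passed in this direction. The call was lost with any 1 array left out (adjusted p 0.0773 to 0.145). Scgb3a1 differed by -1.23 (SE 0.357, adjusted p 0.247) and Inhbb by -0.74 (SE 0.371, adjusted p 0.534). In both of these clodronate replicate 1 was lowest and clodronate replicate 2 highest within its group, the order also seen for Tnfrsf11b, whereas the clodronate values of Lama1 lay within 8.65 to 8.95. The alveolar epithelial marker Sftpc had that order too (8.49, 12.78 and 11.47 in clodronate replicates 1 to 3). The club cell marker Scgb1a1 went the other way, highest in clodronate replicate 1 and lowest in clodronate replicate 2. The part of epithelial transcripts in these values was not tested.

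Read by their brightest probe sets, none of the signaling genes on either side of the axis passed the test. Of the death receptor pathway downstream of DR5, 16 of 20 listed genes were measured and 0 passed in limma, with 0 also at an unadjusted p under 0.05. Their median difference was 0.02, beside -0.0031 over all genes, and they ranged from -0.22 to 0.15. The smallest p-values belonged to Bak1, a pore-forming protein of the mitochondrial outer membrane (-0.22, p 0.0898), to Birc3, an inhibitor of apoptosis (-0.22, p 0.119), and to Bcl2l1, which encodes the survival protein Bcl-xL (0.15, p 0.207). Fadd and Casp8, the adaptor and the initiator caspase of the pathway, differed by 0 (SE 0.12) and -0.1 (SE 0.0925). Cflar, which blocks caspase-8 at the receptor, differed by -0.07 (SE 0.105). The 35 further probe sets of these genes ranged from -0.45 to 0.54, and 0 passed in limma. Against 10.8% of all probe sets, 5 had an unadjusted p under 0.05, 2 lower and 3 higher. Among the 5 were Mcl1 1416881_at (-0.45, unadjusted p 0.00114, adjusted p 0.12), Bcl2 1443837_x_at (0.4, unadjusted p 0.0043, adjusted p 0.19) and Cflar 1453482_at (0.33, unadjusted p 0.0337, adjusted p 0.405). The rest were Cycs 1445484_at (0.54, unadjusted p 0.0482, adjusted p 0.456) and Diablo 1425768_at (-0.25, unadjusted p 0.0338, adjusted p 0.406). All but that of Cycs were without overlap, as were 16.0% of all probe sets in either direction. The brightest probe sets of Cycs and Diablo gave 0.03 and 0.02. Other probe sets of Mcl1, Bcl2 and Cflar also gave values nearer 0. Those of Bcl2 had the same sign (0.09 to 0.28), those of Mcl1 the opposite sign (0.02 to 0.16), and those of Cflar both signs (-0.11 to 0.05).

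Downstream of RANK, 20 of 23 listed genes were measured and 0 passed in limma. Against 1824 of all 18193 genes, 1 had an unadjusted p under 0.05. This was Map3k14, the kinase NIK of the noncanonical NF-kB pathway, which read 9.15, 9 and 9.21 against 8.7, 8.7 and 8.61 without overlap. Its difference was -0.45 (SE 0.0996, unadjusted p 0.0021, adjusted p 0.15), and a dimmer probe set, 1422999_at, gave -0.03. The kinases Src (-0.26, p 0.0541) and Map3k7 (-0.2, p 0.0963) followed. The median of the list was -0.07 with a range of -0.45 to 0.17, and the transcription factor Nfatc1 differed by 0.17 (SE 0.108). The adaptor Traf6 differed by -0.14 (SE 0.116) on its brightest probe set but by 0.25 (95% interval 0.01 to 0.5) on 1435350_at and 0.36 (95% interval 0.1 to 0.61) on 1443288_at, both without overlap and neither past the threshold (adjusted p 0.45 and 0.285). Over the 44 further probe sets of the list, 0 passed in limma. Against 10.8% of all probe sets, 7 had an unadjusted p under 0.05, 3 lower and 4 higher. These included Map3k7 1425795_a_at (-0.41, adjusted p 0.369) and a pair for the kinase Ikbkb of opposite sign, 1445141_at (0.45, adjusted p 0.156) and 1426333_a_at (-0.33, adjusted p 0.301).

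Among 9 genes that RANKL induces in osteoclasts, 0 passed in limma and 1 had an unadjusted p under 0.05, against 1824 of all 18193 genes. Itgb3, an integrin chain that ECs and platelets carry as well, read 9.9, 10 and 10.16 against 9.32, 9.59 and 9.36, a difference of -0.6 without overlap (SE 0.117, unadjusted p 0.000966, adjusted p 0.111). Its other probe set, 1421511_at, gave -0.59. The next smallest p-values were those of the osteoclast receptor Oscar (0.2, p 0.168) and the proton pump subunit Atp6v0d2 (0.29, p 0.202), and Ctsk, the collagen-degrading protease cathepsin K, differed by 0 (SE 0.0925). The median of the 9 genes was -0.04. With probe sets below the median signal left out, only 1 of the 9 genes remained. Calcr (PBS and clodronate means 6.23 and 6.18) and Dcstamp (6.61 and 6.57) lay within the Y-linked range. Ctsk, at 7.075 and 7.078, lay just above it. These low signals left little or no room to show a decrease.

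**Figure D4:**
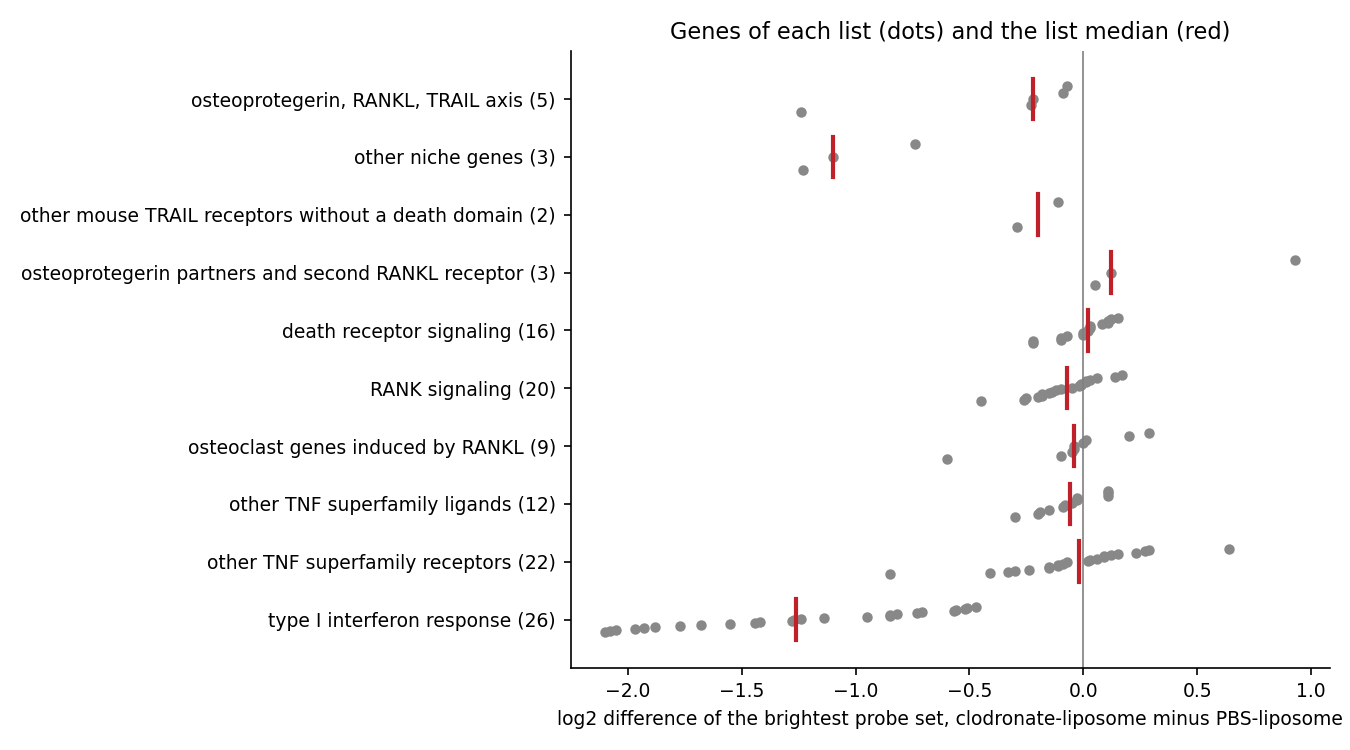
Log2 difference of the brightest probe set (horizontal axis, clodronate-liposome minus PBS-liposome) for each measured gene (dot) of the lists named on the vertical axis, with the number of genes in parentheses and the list median in red. Tnfrsf11b, at -1.24, lies apart from the other 4 axis genes, the signaling lists have medians of -0.07 to 0.02, and all 26 interferon-response genes lie below 0.

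The rest of the TNF superfamily gave a wider frame for these values. Of 12 measured ligands of 16 listed, 0 passed in limma and 0 had an unadjusted p under 0.05, with a median of -0.06 and a range of -0.3 to 0.11. The smallest p-values were those of Tnf (-0.19, p 0.0935), Tnfsf8, the CD30 ligand (-0.3, p 0.102), and Tnfsf9, the 4-1BB ligand (-0.2, p 0.161). With probe sets below the median signal left out, only 1 of the 12 ligands remained. Tnfsf4 (PBS and clodronate means 6.5 and 6.61) and Fasl (6.78 and 6.75) lay within the Y-linked range. Lta, at 6.92 and 6.88, lay just above it. These low signals left little or no room to show a decrease. Of 22 other receptors, 0 passed and 5 had an unadjusted p under 0.05, against 1824 of all 18193 genes, with 3 lower and 2 higher and a median of -0.02. Tnfrsf9, the costimulatory receptor 4-1BB, read 7.93, 8.32 and 8.38 against 7.21, 7.46 and 7.42, and differed by -0.85 (SE 0.144, adjusted p 0.0751). Its other probe sets, 1421481_at and 1428034_a_at, gave -0.1 and -0.13. The means of 1421481_at (6.53 and 6.44) lay within the Y-linked range, and those of 1428034_a_at (7.17 and 7.04) just above it. These probe sets had little or no room to show a decrease. Tnfrsf1b, the type 2 receptor for TNF, differed by -0.3 (p 0.018) and Cd40, the receptor of CD40 ligand, by 0.29 (p 0.0228). No other receptor of the superfamily differed by as much as Tnfrsf11b, whose size in this set was next approached by Tnfrsf9.

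The type I interferon response was the reference for TRAIL, since Tnfsf10 is known to respond to interferon. In limma 16 of 26 measured genes of this list fell, against 0.346% of genes in that direction. All 26 had lower clodronate values without overlap, against 8.04% of all probe sets in that direction. The 16 were Ifit1, Ifit2, Ifit3, Irf7, Mx1, Mx2, Oas2, Oasl1, Oasl2, Rsad2, Usp18, Stat2, Eif2ak2, Xaf1, Parp9 and Zbp1. The list median was -1.26, from -2.1 for Irf7, the interferon-amplifying transcription factor, to -0.47 for Ddx58, the RNA sensor RIG-I. The count depended on the arrays: leaving out 1 array gave 2 to 11 genes, from 2 without PBS replicate 2, 4 without PBS replicate 1 or PBS replicate 3, 6 without clodronate replicate 3, 8 without clodronate replicate 2, to 11 without clodronate replicate 1. With the replicate block 0 passed, with the smallest adjusted p at 0.0507 and 26 at an unadjusted p under 0.05. The lower ends of the Tnfsf10 intervals were -0.32, -0.01 and -0.2, all above the estimate of -0.47 for Ddx58 on its brightest probe set. The interval of that Ddx58 estimate was -0.73 to -0.22, so it overlapped the Tnfsf10 interval that reached -0.32. The 14 further probe sets of the list ranged from -1.98 to 0.01, and 6 of them passed in limma. These intervals do not separate Tnfsf10 from every gene of the list, and the difference between Tnfsf10 and the list was not tested.

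The promoter sequences of Tnfsf10 and of Ifit3 are shown side by side as examples only. Ifit3, an antiviral gene, fell by 1.77 on the log2 scale (adjusted p 0.00687), while Tnfsf10 did not pass the test. Each run is the 250 bases before the RefSeq transcription start (build GRCm38.p6, plus strand, 5′ to 3′), at chr3:27316827-27317076 for Tnfsf10 and chr19:34583279-34583528 for Ifit3. Capitals mark matches on either strand to GAAANNGAAA, the core of the interferon-stimulated response element.
Tnfsf10: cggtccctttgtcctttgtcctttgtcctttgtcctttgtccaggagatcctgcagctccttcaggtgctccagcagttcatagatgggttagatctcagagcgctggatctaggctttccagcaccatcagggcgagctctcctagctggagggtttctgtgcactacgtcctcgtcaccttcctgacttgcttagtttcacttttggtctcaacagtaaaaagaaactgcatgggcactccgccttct
Ifit3: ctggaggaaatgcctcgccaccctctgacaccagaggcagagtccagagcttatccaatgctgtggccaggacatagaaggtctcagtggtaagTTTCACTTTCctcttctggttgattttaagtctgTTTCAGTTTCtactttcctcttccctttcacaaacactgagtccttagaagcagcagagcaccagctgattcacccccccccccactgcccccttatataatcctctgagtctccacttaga

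Ifit3 held 2 matches, starting 156 and 122 bases before the start, and Tnfsf10 held 0. In windows of 300 bases, reaching 50 bases past the start, this core was present in 3.44% of all 32851 RefSeq windows. Counted by gene, over any of its windows, the core was present in 3.99% of 27025 genes. Of the 19 interferon-list genes with a window, 10 held it. Genes with and without it lay at both ends of that list. Irf7 (-2.1) held 0 and Ifit1 (-2.08) held 2, while Dtx3l (-0.52) held 0 and Ddx58 (-0.47) held 1. Whether the core bears on the size of a difference was not tested. Tnfsf10 also held 0 matches to TTCNNNGAA (the gamma-activated site core, in 8.3% of windows) and 0 to GGGANNNNCC (an NF-kB core, in 20.7%). The windows of Tnfsf11 and Tnfrsf11a held none of the 3 motifs, except for 1 NF-kB core in Tnfsf11 that starts 155 bases before the start. A missing match says only that these letters are not in this window. Tnfrsf11b and Tnfrsf10b had no window among the RefSeq sequences used.

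Over the 6 arrays, the genes whose pattern was most like that of Tnfrsf11b were Hspb8 (Pearson r 0.9972), Xpnpep2 (0.9958), Fjx1 (0.9944), Mtmr11 (0.9906) and Slc2a1 (0.9897). They were ranked among the 909 genes with a range of at least 1 on the log2 scale, of which 110 had an r over 0.9. All 5 shared the group step and, within the clodronate group, the higher value of replicate 2. Hspb8, a small heat shock protein, differed by -1.09 and Xpnpep2, a membrane aminopeptidase, by -1.14. Slc2a1, the glucose transporter GLUT1, differed by -0.87. For Tnfsf10, whose own range was 0.24, the highest values among 910 genes were those of Dusp13 (0.9539), Mid1 (0.9522), Ecrg4 (0.9491), 1700020D05Rik (0.9207) and Lss (0.8892), and 4 had an r over 0.9. These correlations describe 6 points that share the normalization and the group step.

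**Figure D5:**
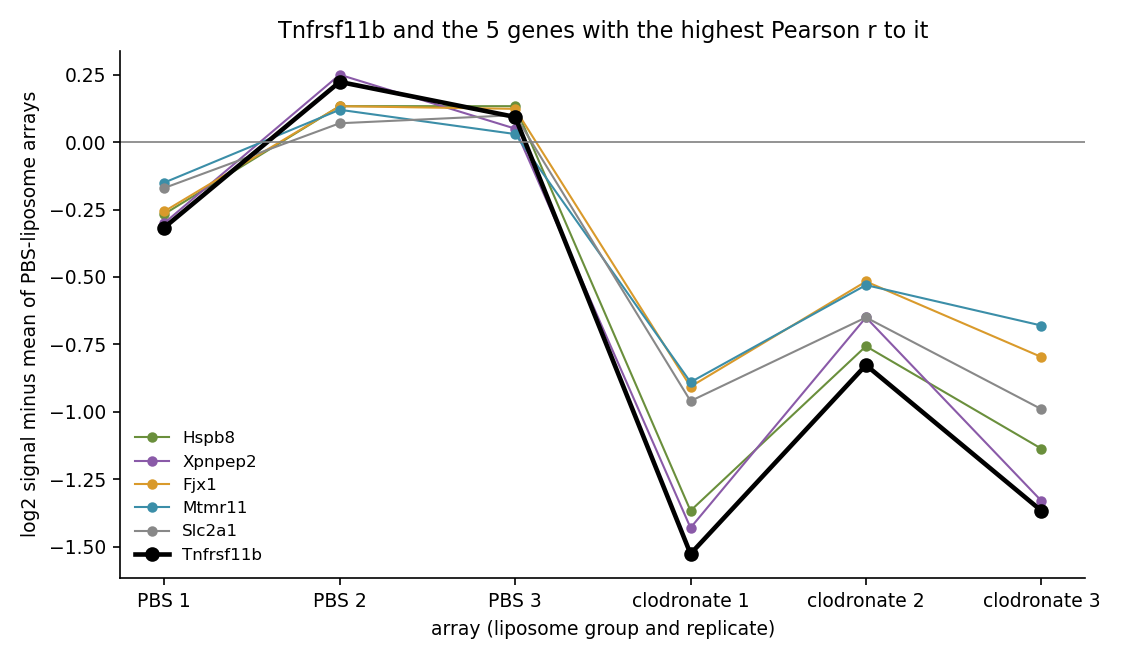
Log2 signal minus the mean of the PBS-liposome arrays (vertical axis) on each of the 6 arrays (horizontal axis) for Tnfrsf11b (black) and the 5 genes with the highest Pearson r to it (colors), with lines joining arrays only to guide the eye. All 6 genes lie lower in the clodronate-liposome arrays, and within that group replicate 2 is the highest for each.

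The sorted cells carried endothelial transcripts in both groups. Over 10 pan-endothelial markers the mean log2 signal was 13.11 to 13.2 in the PBS-liposome arrays and 13.1 to 13.31 in the clodronate-liposome arrays, and Pecam1, which encodes CD31, and Cdh5 differed by 0.07 and 0.09. In limma 0 genes passed in any of the 10 marker lists. Leukocyte markers were lower beside Tnfrsf11b: over 6 pan-leukocyte markers, 3 had an unadjusted p under 0.05, and the mean signal was 8.03 to 8.479 against 7.768 to 8.029. Of all 18193 genes, 1824 had an unadjusted p under 0.05. Ptprc, which encodes CD45, differed by -0.58 (adjusted p 0.217). Of 12 macrophage markers, 2 were lower and 1 higher at an unadjusted p under 0.05, with mean signals of 7.894 to 8.148 against 7.878 to 8.009. Over the 12, 8 differences were negative and 4 positive, with a median of -0.08. Among them Csf1r differed by -0.65 (adjusted p 0.101) and Adgre1 by -0.17 (SE 0.212). Further Csf1r probe sets gave -1.24 (1419872_at, adjusted p 0.0834) and -0.17 (1423593_a_at, adjusted p 0.595).

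Over 11 fibroblast and mural markers, a cell class known to express osteoprotegerin, 1 (Pdgfrb) had an unadjusted p under 0.05, the mean signals were 9.187 to 9.338 against 8.985 to 9.204, and the median difference was -0.19. The 6 epithelial markers had a median of -0.02, with Epcam at -0.13, but the bright ones varied widely between arrays. Sftpc, a surfactant protein of alveolar type 2 cells, read 11.38, 10.14 and 11.35 in the PBS-liposome arrays and 8.49, 12.78 and 11.47 in the clodronate-liposome arrays. Scgb1a1, a club cell secretoglobin, read 10.37, 10.06 and 8.76 against 11.28, 7.53 and 7.89. Clodronate replicate 1 was thus lowest for Sftpc and highest for Scgb1a1, and clodronate replicate 2 the reverse. At an unadjusted p under 0.05, a cut met by 1824 of all 18193 genes, there were 0 of 4 lymphatic, 0 of 3 neutrophil, 1 of 6 lymphocyte and 1 of 4 platelet markers. The platelet mean signal was 9.155 to 9.354 against 8.748 to 9.307. The mean signal of the 4 mesothelial markers reached 8.835 in clodronate replicate 3, against 7.041 to 7.664 on the other arrays. Log2 array signals have no true 0, so no marker could be called missing. The part of these cells in the Tnfrsf11b value was not tested.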

How the data were processed

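Gene expression was measured on Affymetrix GeneChip whole-genome mouse arrays, 3 per group, from amplified RNA of sorted ECs. The deposited values are log2 signals that the authors made by robust multiarray averaging in Chipster 3.8.0. Every array had a median of 8.13, so the values are relative to the other transcripts of an array, and depth and detection are unknown. Of 45101 probe sets, 64 controls were left out. The platform annotation gave 34945 of the others 1 symbol, 932 several and 9160 none. Genes were read by their brightest probe set. A linear model without covariates was fitted to each probe set and moderated by empirical Bayes (limma 3.58.1, R 4.3.3), and two-sided p-values were Benjamini-Hochberg adjusted over 45037 probe sets at 0.05, and the code was tested on simulated data. P-values measure the spread between these arrays only. Arrays correlated at 0.986 to 0.991 within groups and 0.985 to 0.988 between them.

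The named genes were every probe set of the 5 genes, list genes past the threshold or otherwise the 3 smallest p-values, the niche genes, TRAIL receptors and osteoprotegerin partners in full, the 5 genes most like Tnfrsf11b and Tnfsf10, and markers of the sort. A few further pathway genes were named for their known role. The 5 genes and all lists were chosen with earlier results of these data known. Lists are described by counts and medians. Alternatives were other filters, normalizations, variance priors, array weights, covariates, the replicate block and leaving out each array. Motifs were searched in RefSeq windows.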

Additional observations from a re-analysis of the deposited data

How the results depend on the processing

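The direction of Tnfrsf11b, Tnfrsf11a and Tnfrsf10b held under every alternative run, and of the 5 genes Tnfrsf11b alone crossed the threshold under any of them. The 138 probe sets past the threshold became 244 without probe sets below the median signal, 248 with a trended and robust variance prior, 234 with array weights and 57 when the 3′ to 5′ control probe difference was a covariate. In limma they became 0 with the hybridization controls as a covariate (4710 at an unadjusted p under 0.05), 0 with the replicate block (5033) and 0 with clodronate replicate 2 as the only treated array (3964), an alternative chosen after seeing the data whose lone array is assumed to vary like the PBS group. Leaving out 1 array gave 6 (without PBS replicate 2) to 73 (without clodronate replicate 2), with 15, 16, 33 and 23 without PBS replicates 1 and 3 and clodronate replicates 1 and 3.

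Of the 11 probe sets of the 5 genes, 1 passed instead of 0 without probe sets below the median signal, where 8 of the 11 were tested, with the trended prior and with array weights. That probe set was Tnfrsf11b 1418309_at, with differences of -1.24, -1.24 and -1.34. Its difference without 1 array ranged from -1.45 to -1.1. Near 0, Tnfsf11 turned to 0.06 on its other probe set and 0.02 with clodronate replicate 2 alone, and ranged from -0.12 to 0.03 without 1 array. Tnfsf10 turned to 0.24 and 0.03 on its other probe sets and 0.06 on their mean. Without 1 array, Tnfsf10 ranged from -0.14 to -0.03, Tnfrsf11a from -0.3 to -0.06 and Tnfrsf10b from -0.35 to -0.14.

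The calls of Lama1 (1 of the other niche genes) and Lgr4 (1 of the partners) became 0 with the replicate block (adjusted p 0.087 and 0.0988), with clodronate replicate 2 alone (0.44 and 0.459) and without any 1 array. They were also lost with the hybridization controls (0.191 and 0.21) and the 3′ to 5′ difference (0.0876 and 0.0994) as covariates. The 16 interferon genes became 0 with the block and 0 with clodronate replicate 2 alone, each with 26 at an unadjusted p under 0.05, 23 with the trended prior, and 2 to 11 without 1 array. Tnfrsf9 passed with array weights (-0.87, adjusted p 0.0458). The replicate numbers were not taken to pair the arrays: deviations of same-numbered arrays correlated at 0.08, 0.07 and 0.04, although every array correlated best with its own number. The block changed no call among the 5 genes. The cause of these changes was not tested.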
